A study of Mus musculus with 2 samples.

Results

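The 10 genes described here encode products of the Paneth cell granule: lysozyme (Lyz1), the alpha-defensins Defa5, Defa17, Defa21, Defa22, Defa24, Defa26 and Defa30, angiogenin 4 (Ang4) and matrilysin (Mmp7). They were taken by name from the gene rows of the count tables of 2 single-cell libraries, 10 of 16665 rows over both, and all 10 were listed in each library. The libraries came from enteroids, which are cultures of intestinal epithelium grown from crypts, here from the ileum of 4-month-old mice of strain C57Bl6/129sv. The Taf4 IEC library came from Taf4 lox/lox::VilCreER T2 enteroids, in which 1 µM 4-hydroxytamoxifen (4-OHT) over 3 days lets a Cre driven by the villin promoter recombine Taf4 in epithelial cells. The control library is labelled WT and treated with ethanol, whereas the methods give it as Taf4 lox/lox enteroids without Cre treated with 4-OHT, so its treatment remains uncertain. Live-sorted cells were captured at day 8 of culture on the 10X Genomics platform, which counts unique molecular identifiers (UMIs) from the 3′ end of transcripts. There was 1 library per condition and hence no replicate, so that no test between conditions could be made.

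Paneth cells lie at the base of small intestinal crypts, next to the stem cells, and release antimicrobial proteins from large secretory granules. In mice the alpha-defensins (cryptdins) are made as precursors that Mmp7 cleaves to the active peptides, Lyz1 is the Paneth cell form of the enzyme that degrades bacterial cell walls, and Ang4 is a secreted ribonuclease with antimicrobial activity. Goblet cells, which make mucus, share much of the secretory programme and several markers with Paneth cells. The alpha-defensin genes form a tandem family of close copies on chromosome 8, which bears on how reads can be assigned to each of them.

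The sequences before the start sites are shown first, since the members share some of them and since near-identical copies bear on the values that follow. RefSeq (GRCm38.p6) gave such a sequence for 6 of the 10 genes. Each line gives the 130 bases before the annotated start, 5′ to 3′ on the strand of the gene, with the letters TATAAA and ATCAAAG in capitals. The windows were chr8:21025415-21025544 for Defa21 and chr8:21162147-21162276 for Defa22 (plus strand, identical letters), chr8:21134520-21134649 for Defa30 (plus), chr9:7691960-7692089 for Mmp7 (plus), chr14:51773591-51773720 for Ang4 (minus) and chr10:117292869-117292998 for Lyz1 (minus).
Defa21 and Defa22: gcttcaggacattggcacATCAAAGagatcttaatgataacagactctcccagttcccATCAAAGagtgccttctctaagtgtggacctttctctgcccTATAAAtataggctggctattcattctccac
Defa30: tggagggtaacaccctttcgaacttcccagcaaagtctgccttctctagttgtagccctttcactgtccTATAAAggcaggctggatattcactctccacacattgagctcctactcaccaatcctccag
Mmp7: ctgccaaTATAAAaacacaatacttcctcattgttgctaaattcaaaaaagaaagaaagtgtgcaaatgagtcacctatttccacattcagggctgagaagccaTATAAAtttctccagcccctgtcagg
Ang4: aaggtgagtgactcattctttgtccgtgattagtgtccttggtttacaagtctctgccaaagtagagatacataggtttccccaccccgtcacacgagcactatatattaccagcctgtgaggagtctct
Lyz1: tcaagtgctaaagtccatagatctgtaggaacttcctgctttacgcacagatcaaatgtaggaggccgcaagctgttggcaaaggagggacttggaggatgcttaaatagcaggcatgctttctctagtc
Defa21 and Defa22 were identical at 300 of 300 bases from 250 before to 50 after their starts. Both carried TATAAA at bases -31 to -26 and ATCAAAG at -112 to -106 and -72 to -66, counted from the first transcribed base. Over 32851 such windows in the table, 1.99% held TATAAA on the sense strand between 40 and 16 bases before the start, and 33 windows held ATCAAAG at least 2 times on either strand. On either strand anywhere in the window, 13.6% held TATAAA and 3.73% held ATCAAAG. Mmp7, for which 1 of 2 listed windows is shown, carried TATAAA at -26 to -21 and at -123 to -118. It carried ATCAAAG from 4 to 10 bases after the first transcribed base. Defa30 carried TATAAA at -61 to -56 and ATCAAAG at -142 to -136. Neither motif was found in the Ang4 and Lyz1 windows. The motifs did not overlap each other in these windows, and a match is a stretch of letters, not a measured site.

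The 7 defensin members are also close copies as transcripts. In 21 pairs the aligned transcripts were 71.1% to 99.3% identical (median 79.1%), the highest being Defa21 with Defa22, whose longest shared run was 171 bases. Defa17 and Defa30 were 95.5% identical, and Defa24 and Defa30 92.9%. Counts of each of these genes are therefore uncertain wherever a read could come from several copies, and Defa17 shares a run of 369 bases with Defa3. RefSeq and the count tables hold Defa3, Defa5, Defa17 and Defa29 as separate genes, but RefSeq also gives Defa29 as a synonym of Defa5 and Defa3 as one of Defa17. Genes were matched by current symbol, so the positions of Defa5 and Defa17 are uncertain to that extent. In the reference, Defa5 lies on chromosome 8 from 21297394 to 21298375, Defa17 from 21655767 to 21656736, Defa24 from 21734494 to 21735471 and Defa26 from 21618168 to 21618972. Lyz1 lies on chromosome 10 from 117287795 to 117292868, Ang4 on chromosome 14 from 51763892 to 51773590 and Mmp7 on chromosome 9 from 7692090 to 7699585.

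The control library held 2563 cells and 39947009 UMIs and the Taf4 IEC library 1811 cells and 24990128 UMIs. A median cell had 16749 UMIs in the former and 2254 in the latter, and cells with fewer than 2000 made up 17.3% and 49.1%. The libraries shared 2 cell barcodes. Over the 10002 genes with at least 200 UMIs in both libraries together the median log2 ratio, Taf4 IEC over control, was 0.16, and 5.52% of them were at least 2-fold higher and 3.48% at least 2-fold lower in Taf4 IEC. For Taf4 itself 278 control and 236 Taf4 IEC UMIs were counted (log2 ratio 0.44, 95% interval 0.18 to 0.70), so that its count does not separate the libraries by their labels. These 3′ counts do not show which exons a transcript retains. Of 8 markers of immune, stromal and endothelial cells 4 were listed in each library, at a summed level of 0.0401 and 0.0756 UMIs per 10000, of which 0.00401 and 0.00600 remained without Vim.

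Among 10000 UMIs of all cells, 18.8 came from the 10 genes in control enteroids and 62.3 in Taf4 IEC enteroids, with a log2 ratio of 1.73 (1.71 to 1.74). All 10 were at least 2-fold higher in Taf4 IEC, against a background of 5.52% of genes, with a median log2 ratio of 2.35 and a range of 1.08 to 5.46. With totals scaled in 2 other ways, Defa24 fell short of 2-fold (log2 ratio 0.90 and 0.93) and the other 9 did not. Defa5 and Defa26 passed the limit of 200 UMIs only through the Taf4 IEC library. Levels are UMIs per 10000 UMIs of all genes, which for 3′ tags do not scale with transcript length. The intervals (exact Poisson for levels, exact conditional binomial for ratios) cover counting error only, whereas the molecules came from few cells, as shown further on. In summed cells, more producing cells and more RNA per producing cell cannot be told apart.

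Of the antimicrobial enzymes, Lyz1 stood at 3.31 (3.26 to 3.37) in the control and 16.8 (16.6 to 16.9) in Taf4 IEC, which gave a log2 ratio of 2.34 (2.31 to 2.37). For Ang4 the levels were 1.76 (1.72 to 1.80) and 12.7 (12.6 to 12.8), giving 2.85 (2.82 to 2.89). Both ratios were above that of Defa24, the defensin with the most UMIs in both libraries. Its levels were 11.8 (11.7 to 11.9) and 25 (24.8 to 25.2), giving 1.08 (1.07 to 1.10). Thus Defa24, with 47076 of the 75148 member UMIs of the control, exceeded Lyz1 and Ang4 together there, whereas in Taf4 IEC it had 62390 of 155661 UMIs, fewer than Lyz1 (41954) and Ang4 (31734) together. Mmp7, the processing enzyme, stood at 0.308 and 0.787, a log2 ratio of 1.36 (1.25 to 1.46).

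The other defensins were lower and differed in their ratios. Defa17 stood at 0.90 in the control and 2.4 in Taf4 IEC, a log2 ratio of 1.41 (1.35 to 1.47). Defa30 stood at 0.496 and 2.56, a log2 ratio of 2.37 (2.29 to 2.44). The pair of near-identical genes had similar values, with Defa21 at 0.123 and 0.945 and Defa22 at 0.0974 and 0.932, log2 ratios of 2.95 and 3.26. Defa26 stood at 0.0293 and 0.119, with 117 and 297 UMIs, giving 2.02 (1.71 to 2.34). Defa5, the least abundant in each library, had 9 and 247 UMIs, giving 5.46 (4.51 to 6.60). These last values rest on very few cells.

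**Figure D1:**
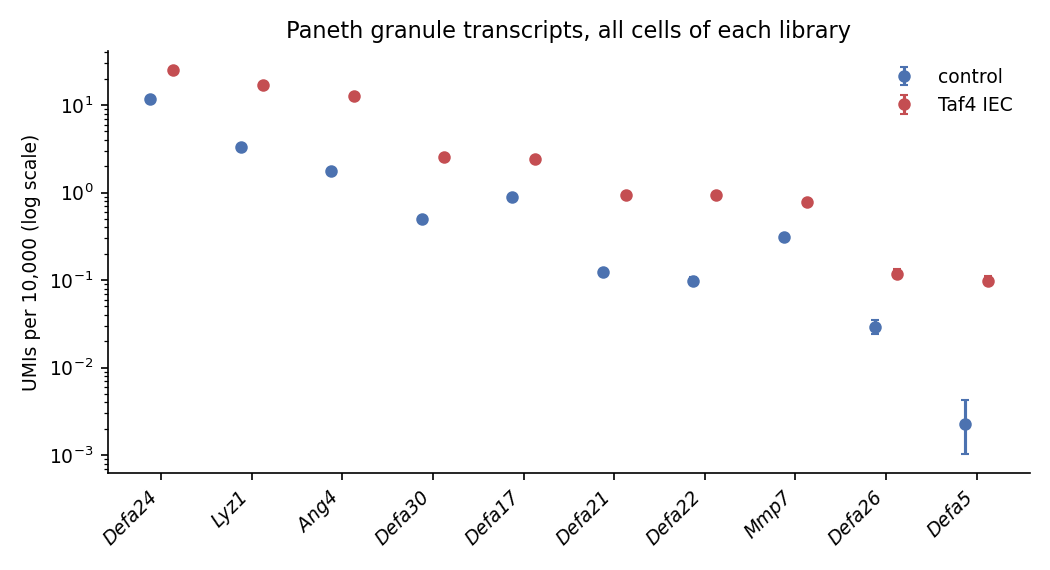
Level of each gene in all cells of the control (blue) and Taf4 IEC (red) library, in UMIs per 10000 on a log axis, 1 point per library with its exact Poisson 95% interval, which is smaller than the point for most genes. The red point is above the blue one for all 10 genes, with the widest gap for Defa5 (9 against 247 UMIs) and the narrowest for Defa24 (11.8 against 25 per 10000).

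The transcripts were concentrated in a small number of cells. In the control, 50% of all member UMIs lay in 16 of 2563 cells, and in Taf4 IEC in 20 of 1811 cells. The median control cell had 1.46 member UMIs per 10000 and the highest 3469, and in Taf4 IEC the median was 9.17 and the highest 2425. For Lyz1, 50% of the UMIs lay in 11 control and 14 Taf4 IEC cells, for Defa24 in 10 and 11, for Ang4 in 16 and 18, for Defa17 in 8 and 10 and for Mmp7 in 20 and 14. Such concentration was rare among genes: with at least 200 UMIs in a library, 0.576% of 8847 genes in the control and 1.28% of 7972 in Taf4 IEC reached 50% within 20 cells.

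Defa21, Defa22 and Defa5 were the extreme case. A single control cell of 16385 UMIs held 380 of 490 Defa21 UMIs (77.6%), 283 of 389 Defa22 UMIs (72.8%) and 7 of 9 Defa5 UMIs. In Taf4 IEC, a cell of 16307 UMIs held 999 Defa21, 890 Defa22 and 131 Defa5 UMIs, which were 42.3%, 38.2% and 53.0% of the library. In each library 80% of the UMIs of each of these 3 genes lay in 2 or 3 cells. Without the highest cell of each library for the gene, the log2 ratio was 4.31 for Defa21, 4.44 for Defa22 and 6.54 for Defa5 (2 and 116 UMIs), and that of the other 7 genes was between 1.12 for Defa24 and 2.97 for Ang4.

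**Figure D2:**
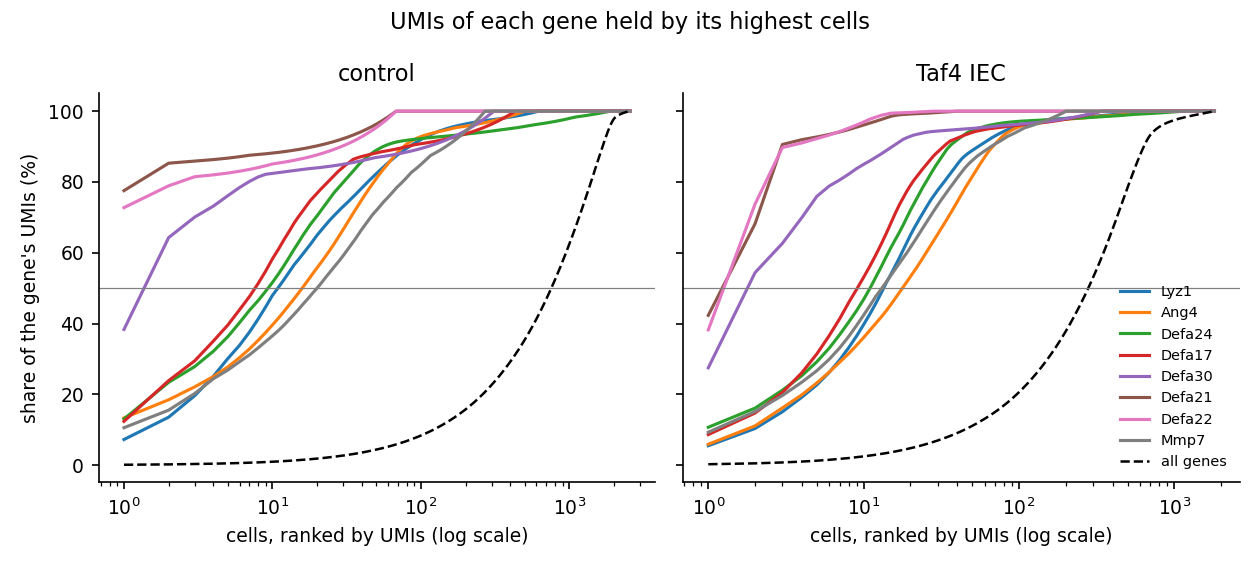
Cumulative share of the UMIs of each gene (y axis, percent) held by its highest cells, ranked from the left (x axis, number of cells on a log scale), in the control (left) and Taf4 IEC (right). The dashed line gives all genes with cells ranked by depth, and the curves of Defa21 and Defa22 start at 77.6% and 72.8% with 1 control cell, whereas Lyz1, Defa24, Ang4, Defa17 and Mmp7 cross the grey line at 50% between 8 and 20 cells in both libraries.

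To describe single cells, those with at least 2000 UMIs were taken, and a cell was called high at 100 or more member UMIs per 10000. There were 69 high cells among 2119 in the control (3.26%, exact binomial interval 2.54 to 4.10) and 99 among 921 in Taf4 IEC (10.7%, 8.82 to 12.9). The limit is a point on a continuous range, with 22 and 12 cells between 80 and 125 per 10000. High cells held 80.4% and 92.1% of the member UMIs of their library. Their median summed level was 319 in the control and 402 in Taf4 IEC, and their median depth 16385 and 28516 UMIs. Among cells under 2000 UMIs, 11 of 444 (2.48%, 1.24 to 4.39) and 56 of 890 (6.29%, 4.79 to 8.09) were at this level.

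The high cells did not share 1 repertoire. Counting a gene as carried at 10 or more UMIs per 10000, Defa24 was carried by 53 of 69 control cells (76.8%, 65.1 to 86.1) and 63 of 99 Taf4 IEC cells (63.6%, 53.4 to 73.1). Lyz1 was carried by 39 (56.5%, 44.0 to 68.4) and 77 cells (77.8%, 68.3 to 85.5), and Ang4 by 27 (39.1%, 27.6 to 51.6) and 78 (78.8%, 69.4 to 86.4). Ang4 was thus the gene whose share of carriers differed most of these 3. Defa17 was carried by 31 and 40 high cells, of which 31 and 39 also carried Defa24, whereas 22 and 24 Defa24 carriers lacked Defa17 at this level. Mmp7 was carried by 10 and 13, Defa30 by 7 and 13, and Defa21 by 2 and 4.

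Lyz1 and Defa24, the leading members of each kind, were often apart within the high cells. These cells were chosen by the sum of the members, so a cell low in Lyz1 had to be high in other members, and likewise for Defa24. That choice favours cells with Lyz1 or Defa24 alone over cells with neither, and its part in the patterns was not tested. Over all cells with at least 2000 UMIs the log levels of Lyz1 and Defa24 were positively correlated (Pearson r 0.33 in the control and 0.50 in Taf4 IEC). In the control, 23 high cells carried both, 30 carried Defa24 alone and 16 carried Lyz1 alone. The 16 cells with Lyz1 alone held 49.1% of the Lyz1 UMIs of the library and 0.0552% of its Defa24 UMIs, with at most 7 Defa24 UMIs in a cell and a median depth of 18561.5 UMIs. The 30 cells with Defa24 alone held 54.3% of the Defa24 UMIs and 0.718% of the Lyz1 UMIs. No control high cell had a Defa24 level between 5 and 40 per 10000: the highest below the gap was 3.05 and the lowest above it 44.7.

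In Taf4 IEC, 46 high cells carried both (46.5%, 36.4 to 56.8, against 33.3%, 22.4 to 45.7, in the control), 31 Lyz1 alone, 17 Defa24 alone and 5 neither. The share with Defa24 alone was 17.2% (10.3 to 26.1), against 43.5% (31.6 to 56.0) in the control, and the share with Lyz1 alone was 31.3% and 23.2%, with overlapping intervals (22.4 to 41.4 and 13.9 to 34.9). A Defa24 level between 5 and 40 was found in 11 Taf4 IEC high cells. The cells with Lyz1 alone again held nearly no Defa24, 0.159% of the library, beside 46.0% of its Lyz1. At limits of 5 and 20 in place of 10, the cells with Defa24 alone were 31.9% and 55.1% of control high cells and 12.1% and 25.3% of those in Taf4 IEC.

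**Figure D3:**
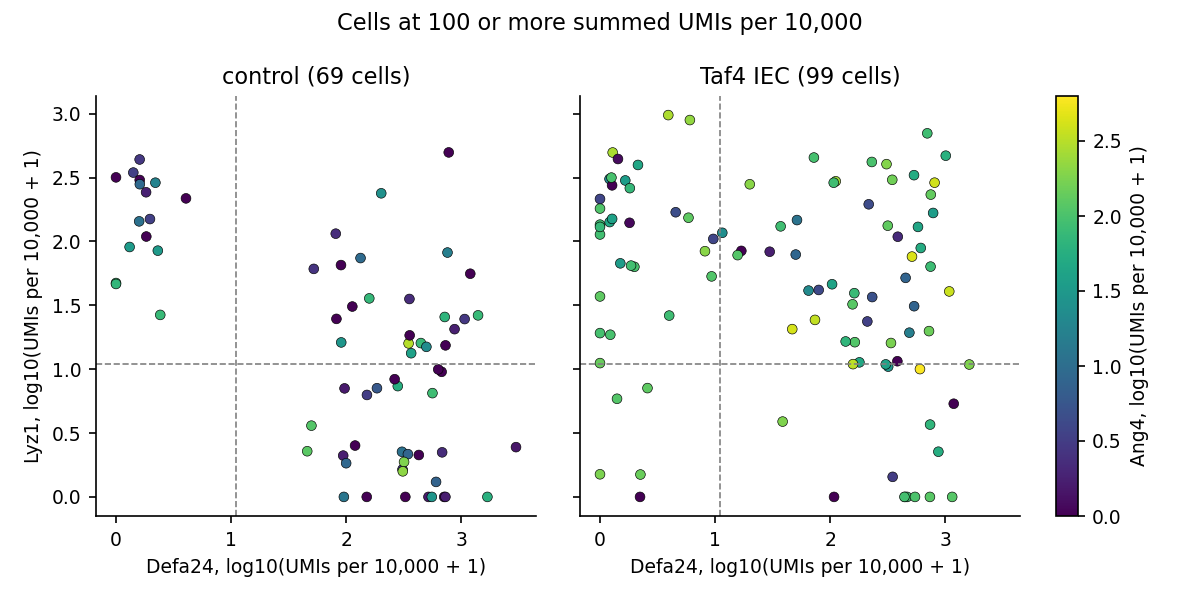
Lyz1 (y axis) against Defa24 (x axis) in each high cell, both as log10(UMIs per 10000 + 1), coloured by Ang4 on the same scale, for the control (left, 69 cells) and Taf4 IEC (right, 99 cells), with dashed lines at 10 UMIs per 10000. In the control 16 cells form a group at the upper left, apart from the Defa24 cells by an empty range from 5 to 40 per 10000, which 11 Taf4 IEC cells occupy.

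Other secretory genes were present in the cells of all 3 patterns. Spink4, a secreted peptide of goblet and Paneth cells, had a median of 161, 120 and 141 per 10000 in control cells with both, Lyz1 alone and Defa24 alone, and 402, 258 and 473 in Taf4 IEC. Tff3, a trefoil peptide of goblet cells, had medians of 143, 162 and 154 in the control and 345, 269 and 287 in Taf4 IEC. Itln1, a lectin of Paneth and goblet cells, followed Lyz1 more than Defa24, with medians of 4.79, 16.1 and 0.701 in the control and 75.4, 69.1 and 7.91 in Taf4 IEC. No cell of these patterns reached 10 per 10000 of the hormone-storage genes Chga or Chgb or of the stem cell gene Lgr5. Neurog3, a gene of enteroendocrine precursors, had 25, 38, 53 and 34 UMIs in the Taf4 IEC cells ranked 9, 11, 13 and 18 by member UMIs. It was not found in the others of the highest 20, and had at most 4 UMIs in the highest 20 control cells. Of all high cells, 1 in the control and 9 in Taf4 IEC lay in the enteroendocrine-like clusters described further on. The Ang4 median was 1.82, 5.21 and 2.02 in the control patterns and 72.7, 86.2 and 89.5 in those of Taf4 IEC, so that Ang4 was higher in Taf4 IEC in all 3.

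The highest cells show the range. The control cell with the most member UMIs, of 20650 in all, had 6138 of Defa24, 759 of Defa30, 202 of Defa17, 38 of Defa21, 3 of Lyz1 and 1 of Ang4. The next had 4875 of Defa24, 445 of Defa17, 169 of Ang4 and 0 of Lyz1. The third was the cell with most of the Defa21 and Defa22, and it also had 915 of Defa24, 514 of Defa30, 130 of Mmp7 and 9 of Lyz1. All 3 were therefore defensin cells with little lysozyme. In Taf4 IEC the first cell, of 41972 UMIs, carried nearly the whole set, with 3371 of Defa24, 1756 of Defa30, 1649 of Ang4, 1206 of Lyz1, 611 of Defa21, 372 of Defa22 and 35 of Defa5. The second had 6678 of Defa24, 752 of Ang4 and 41 of Lyz1, and the third 3164 of Defa24 and 1474 of Lyz1.

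**Figure D4:**
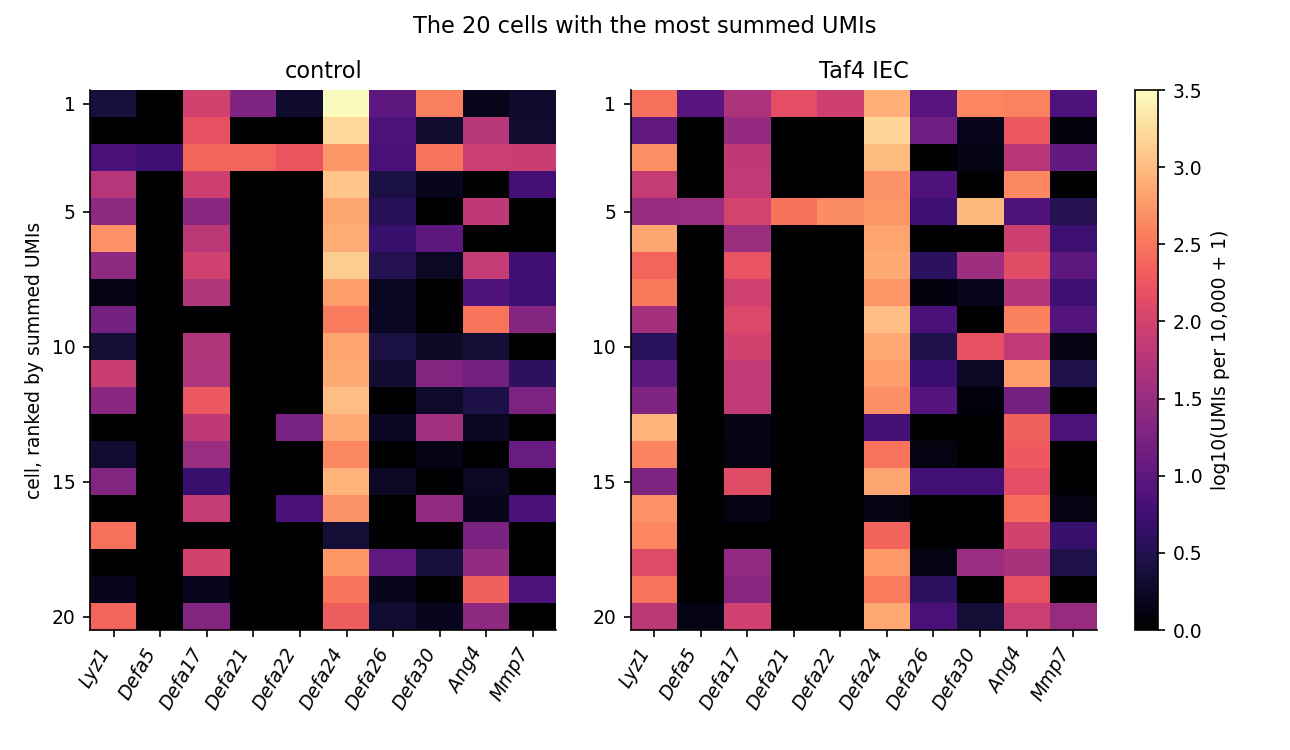
The 20 cells with the most member UMIs in the control (left) and Taf4 IEC (right), 1 row per cell from the highest down, with colour as log10(UMIs per 10000 + 1) of each gene. Defa24 is bright in nearly all rows, and Ang4 and Lyz1 are bright in more Taf4 IEC than control rows. Defa21, Defa22 and Defa30 are bright together in few, namely control row 3 (380, 283 and 514 UMIs) and Taf4 IEC rows 1 (611, 372 and 1756) and 5 (529, 828 and 1717).

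Cells with Defa21 and Defa22 mostly carried other defensins. At 10 or more UMIs of Defa5, Defa21 or Defa22 there were 4 control and 15 Taf4 IEC cells, and all 4 in the control and 12 in Taf4 IEC also had at least 10 of Defa30 and of Defa24. The Taf4 IEC cell with 999 of Defa21 and 890 of Defa22 was different, with 1 of Defa30, 2 of Defa24, 0 of Lyz1, 0 of Ang4, 4 of Tff3 and 13 of Chga. Of the 12 Taf4 IEC cells with Defa30 and Defa24, 9 were shallow barcodes. Of 16 Taf4 IEC barcodes under 2000 UMIs with at least 30 member UMIs, 9 (615 to 960 UMIs each) had a member composition closest to that of the same deep cell of 17932 UMIs, with a cosine of at least 0.987. Together they had 41.8% Defa30, 21.8% Defa24, 16.9% Defa22 and 11.1% Defa21 among 1181 member UMIs, against 39.5%, 22%, 19% and 12.2% of 4349 in the deep cell. No other deep cell was the closest for more than 2 of the 16. Whether these barcodes were separate cells was not tested.

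To place the transcripts in cell types, each library was clustered alone without the members and their family. Clusters were named from markers that are not members, which included Lyz2 of the family. The control had 1 Paneth/goblet-like cluster, of 279 cells (median 16634 UMIs), in which 23 of 31 Paneth, goblet and shared markers were raised, and whose leading genes were Defa24, Spink4 and Ang4. Taf4 IEC had 2, of 88 cells (median 32797 UMIs, led by Zg16, Muc2 and Defa24) and of 92 cells (median 899.5 UMIs), the latter with 10 markers raised. Several genes of low-quality cells, AY036118, Gm42418 and Lars2, stood beside defensins, Itln1 and Spink4 among the leading genes of the shallow cluster. The control cluster held 86.2% of the member UMIs of its library, and the Taf4 IEC clusters 79.5% and 5.18%.

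In these cells the summed members stood at 135 (134 to 136) in the control and 435 (432 to 437) in Taf4 IEC, a log2 ratio of 1.69 (1.67 to 1.70). High cells of any depth were 66 of the 279 control cells, and 67 of 88 and 30 of 92 in the Taf4 IEC clusters. In this class too, more producing cells and more RNA per producing cell cannot be told apart. Lyz1 stood at 22.7 and 113 (log2 ratio 2.32), Ang4 at 12.5 and 83.9 (2.75), Defa24 at 86.3 and 186 (1.10), Defa17 at 6.48 and 17.5 (1.43), Defa30 at 3.44 and 19.4 (2.49) and Mmp7 at 1.90 and 4.76 (1.32). All 10 members were at least 2-fold higher, 9 of them with at least 200 UMIs in these cells (not Defa5, and Defa26 only through Taf4 IEC), beside 3.19% of the 3888 genes with 200 UMIs in this class, whose median log2 ratio was 0.02. The count was 7 at a finer resolution and with the family kept for clustering (without Defa17, Defa24 and Mmp7 in each), 8 as a mean per cell, 9 with 10 principal components and 5 in the class by own markers that follows. Of 27 non-member Paneth and goblet markers with a ratio, 12 were at least 2-fold higher and 3 at least 2-fold lower. The others were between, and the median log2 ratio was 0.77. No limit on UMIs was set here. Those higher included Lyz2 of the family (6 and 10 UMIs) and Mptx1 (2 and 11). The lower ones were Sntb1 (12 and 3), Ccl6 (23 and 5) and Ccl9 (86 and 10). The summed level of the markers was 376 and 1150, most of it from Tff3 (149 and 404) and Spink4 (108 and 397). The markers of the Paneth list with at least 200 UMIs in the class went both ways. Itln1 was higher, at 13.0 and 85.8 (2.72), Pnliprp2 differed little (0.14), and Clps (-0.68), Nupr1 (-0.50) and Rnase1 (-0.77) were lower. Their part in the member ratios was not tested. When cells with at least 2000 UMIs were classed by their own markers, giving 100 control and 114 Taf4 IEC cells, the summed log2 ratio was 0.77, with Defa24 at 178 and 190 (0.09), Defa17 at 13.3 and 17.7 (0.41), Mmp7 at 3.57 and 5.13 (0.52), Lyz1 at 32.1 and 124 (1.96) and Ang4 at 25.7 and 91.3 (1.83). Lyz1 and Ang4 were over 2-fold higher under both definitions, and Defa24 under the first alone.

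**Figure D5:**
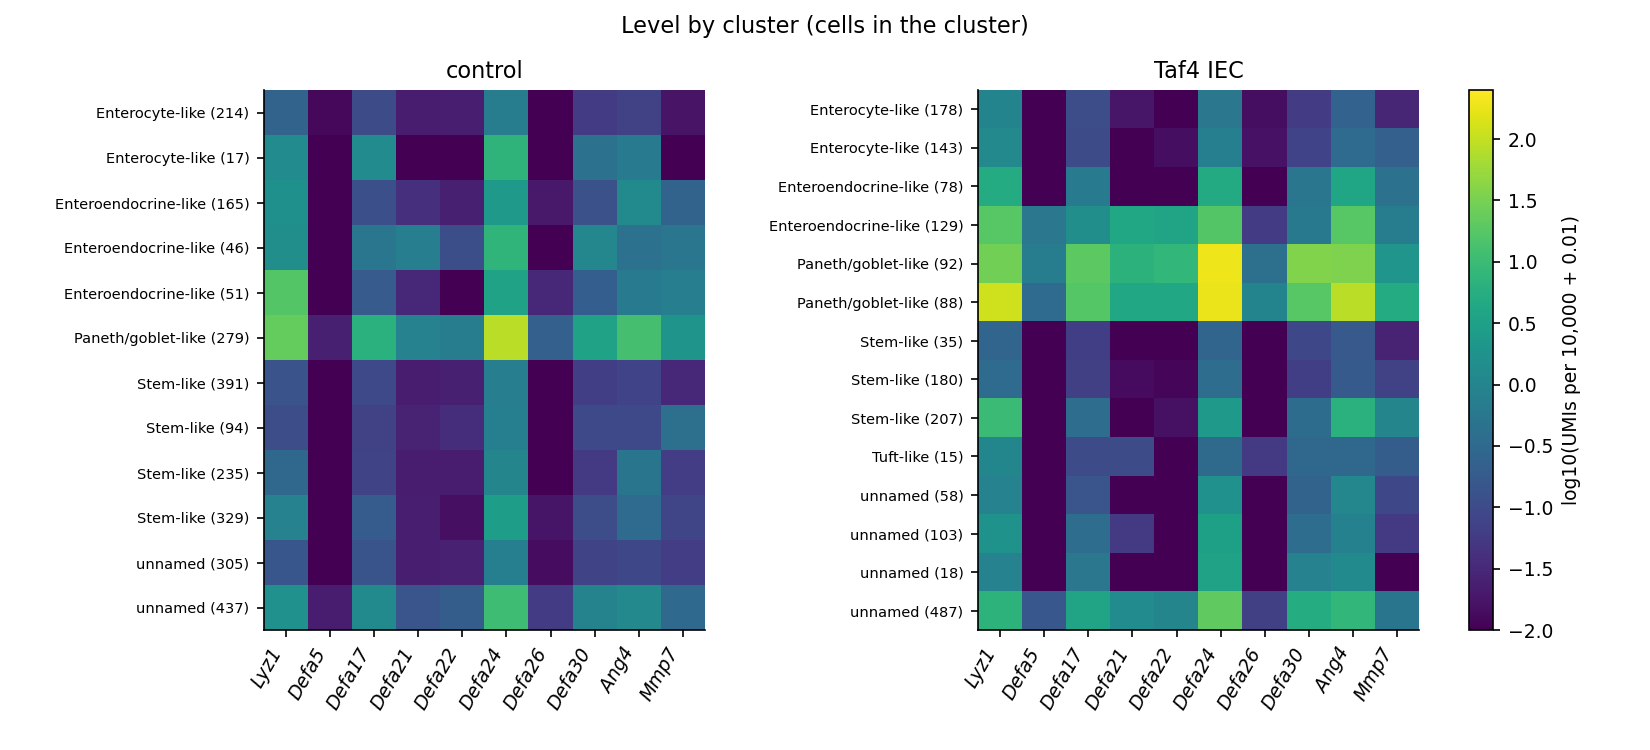
Level of each gene in each cluster of the control (left, 12 clusters) and Taf4 IEC (right, 14 clusters), as log10(UMIs per 10000 + 0.01), with the class and the number of cells on the y axis. Rows of Paneth/goblet-like clusters are brightest in both libraries (Defa24 at 86.3 in the control and at 194 and 185 in Taf4 IEC), and Lyz1 is also raised in the control enteroendocrine-like cluster of 51 cells (16.7, with Defa24 at 3.41).

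Outside this class, member UMIs were found in every cluster. In enterocyte-like cells, which are not known to make defensins, 70.1% of 231 control cells (63.8 to 76.0, median 21058 UMIs) and 68.5% of 321 Taf4 IEC cells (63.1 to 73.6, median 34546 UMIs) had a Defa24 UMI, close to the 78.5% of control (median 16634 UMIs) and 73.3% of Taf4 IEC (median 9064 UMIs) Paneth/goblet-like cells. Over all cells the shares were 73.0% and 61.5%, within and below these enterocyte-like intervals, and are not read as shares of expressing cells. Free RNA was not measured here. After thinning each cell to 2000 UMIs, which left out 444 and 890 cells, 21.9% and 21.8% of cells had Defa24, 9.63% and 22.6% (19.9 to 25.4) Lyz1, and 7.55% (6.46 to 8.76) and 20.1% (17.5 to 22.8) Ang4. The same thinned shares in enterocyte-like cells were 23.4% and 15% for Defa24, 3.27% and 13.5% for Lyz1 and 1.4% and 7.49% for Ang4, so that Lyz1 and Ang4 were also found in more enterocyte-like cells of Taf4 IEC. That class held 4 high cells of any depth in Taf4 IEC and 0 in the control. In Paneth/goblet-like cells they were 39.3% and 55.7% for Defa24, 38.2% and 77.4% for Lyz1 and 32.4% and 83.0% for Ang4. In level, Defa24 stood at 0.767 and 0.657 in enterocyte-like and at 1.54 and 0.721 in stem-like cells, and Lyz1 at 0.252 and 1.05 and at 0.425 and 2.16. Single cells carried much of this. A Taf4 IEC stem-like cell held 1365 of 1964 Lyz1 UMIs, and an enterocyte-like one 261 of 966. Without the highest cell of each library for the gene in the class, Lyz1 stood at 0.215 and 0.773 in enterocyte-like cells and at 0.345 and 0.662 in stem-like cells, where Defa24 stood at 0.960 and 0.646.

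Lyz1 was raised in 1 control cluster with little defensin. In the enteroendocrine-like cluster of 51 cells led by Tac1, Chgb, Chga and Tph1, which mark serotonin-making enterochromaffin cells, Lyz1 stood at 16.7 (15.5 to 17.9), Defa24 at 3.41, Ang4 at 0.661 and Defa17 at 0.176. The ratio of Lyz1 to Defa24 UMIs was 4.88 there, against 0.129 to 0.689 in the other 11 control clusters. At least 10 Lyz1 UMIs were found in 14 of the 51 cells, and without the highest cell, which had 200 of 757, the level was 12.9. In the deeper enteroendocrine-like cluster of Taf4 IEC (129 cells) Lyz1 stood at 18, Ang4 at 18.4 and Defa24 at 16.6. Without the highest cell for each gene these levels were 8.46, 11.8 and 9.01. For Lyz1 that cell held 2301 of 4290 UMIs, and it had 0 of Chga, 1 of Chgb, 53 of Neurog3, 853 of Spink4 and 645 of Tff3. That cluster also contained the Defa21 and Defa22 cell with 13 Chga UMIs, which gave 99.7% of its Defa21. In a stem-like Taf4 IEC cluster of 207 cells led by genes of mitosis, Lyz1 stood at 9.89, or 2.11 without 1 cell that held 1365 of 1723 UMIs.

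The ratio between libraries varied with the depth of the cells. Cells were grouped by depth with limits at 1000, 2000, 5000 and 20000 UMIs. The groups held 216, 228, 131, 1070 and 918 control cells and 660, 230, 163, 170 and 588 Taf4 IEC cells. From the shallowest to the deepest group the log2 ratio of Lyz1 was 1.4, 1.93, 3.13, 1.48 and 2.62. Ang4 was likewise higher in Taf4 IEC at each depth, at 1.78, 1.85, 3.75, 2.09 and 3.21. Defa24 was lower in Taf4 IEC in the 2 shallowest groups, with log2 ratios of -0.30 (-0.47 to -0.12) and -0.21 (-0.37 to -0.04), and higher by 0.13, 1.39 and 1.30 in the others. Its level was 24.7 in control and 20.1 in Taf4 IEC cells under 1000 UMIs, and 9.64 and 23.8 in cells of 20000 or more. Without the highest cell of each library for the gene, its level under 1000 UMIs was 22.7 and 19.3. In the next group it was 13.8 and 14.5 without that cell, so the lower level in Taf4 IEC did not hold there.

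Other genes of Paneth and goblet cells were read from lists beside the members, over all cells and for genes with at least 200 UMIs, of which 5.52% were at least 2-fold higher and 3.48% at least 2-fold lower among all genes. In the list of Paneth granule and secretion genes, 1 of 6 was at least 2-fold higher and 1 at least 2-fold lower, with a median log2 ratio of -0.20. The lower gene, Nupr1, lay mostly outside Paneth/goblet-like cells, which held 5586 of its 36500 control and 2507 of its 8156 Taf4 IEC UMIs. Itln1 stood at 1.86 and 12.9 per 10000 (log2 ratio 2.8), Nupr1, a stress-response regulator, at 9.14 and 3.26 (-1.49), and Clps, a colipase, at 1.26 and 0.791 (-0.68). Of 7 niche signals none was past 2-fold (median 0.27), with Wnt3, a ligand that maintains stem cells, at 0.271 and 0.327 and the Notch ligand Dll1 at 0.0829 and 0.0572. Of 10 regulators, 1 was higher, Neurod1 (1.26), a factor of enteroendocrine cells, with a median of 0.14. Atoh1, which specifies secretory cells, stood at 0.0981 and 0.118, and Sox9, needed for Paneth cells, at 1.07 and 1.12. Of 10 genes in the goblet list, 7 were at least 2-fold higher and 1 lower (median 1.45). Among them, Clca1 (14 and 474 UMIs) reached 200 UMIs only through Taf4 IEC. Tff3 stood at 22.6 and 60.7, Spink4 at 14.8 and 56.7 and the mucin Muc2 at 0.221 and 1.73. The list held Spink4, Agr2 and Reg4, which served as markers shared by Paneth and goblet cells in naming clusters.

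Further genes of the family were scarce. Of 15 other defensin and lysozyme genes 3 had at least 200 UMIs, of which Defa3 (112 and 268 UMIs) and Defa36 (90 and 176) were at least 2-fold higher and Gm7861 (217 and 112) was not past 2-fold in either direction. Lyz2, the lysozyme of macrophages and other myeloid cells, had 18 and 60 UMIs beside 13240 and 41954 of Lyz1, with which its transcript is 92.2% identical.

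The genes whose level per cell was most like that of the summed members were secretory genes. Over 2119 control and 921 Taf4 IEC cells with at least 2000 UMIs and 7825 genes outside the family, the highest Pearson correlations of log levels were those of Spink4 (0.75 and 0.87), Tff3 (0.66 and 0.83), Fcgbp (0.61 and 0.78), Reg4 (0.61 and 0.70) and Agr2 (0.60 and 0.65). Tpsg1, Selenom, Itln1, Muc2 and Slc12a8 followed, with means over both libraries of 0.60 to 0.56. Among the members, Defa5 with Defa22 gave 0.51 and 0.98, Defa5 with Defa21 0.55 and 0.89 and Defa21 with Defa22 0.50 and 0.89, values that rest on few cells. Defa17 with Defa24 gave 0.68 and 0.78, while Lyz1 with Defa24 gave 0.33 and 0.50 and Lyz1 with Ang4 0.35 and 0.67. Cells of a library share its background and are not replicates, so that these values are descriptions.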

How the data were processed

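Droplet-based single-cell libraries, 1 per condition, were used. The deposited values are raw UMI counts per gene and cell, for which the authors aligned reads to mm10 with Cell Ranger 3.1, dropped genes without expression and retained cells between 200 and 6000 genes with less than 15% mitochondrial reads. Reads matching several genes are not resolved by such counts, which affects the defensins. The submitters' processing notes also name bcl2fastq 2.17.1.14 and Seurat 3.1.4.

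Counts were analysed in Python 3.11.15 (pandas 2.3.3, scipy 1.17.1, numpy 2.4.6), and clustered with Seurat 5.3.0 in R 4.3.3 (2000 variable genes without the members and their family, UMI count and mitochondrial percent regressed out, 20 principal components, resolution 0.9). A cluster took the class with the most markers at 10 UMIs and 1.5 times the mean level of the libraries, if at least 3, except where the 10 leading genes contained more markers of a different class, or none of its own beside a low-quality gene (mitochondrial genes, Gm42418, AY036118, Malat1 or Lars2, used only for this). This rule was set after marker values had been seen. For the class by own markers, a cell needed 5 UMIs and 3 times the mean level of the libraries. Intervals are 95% and cover counting error only, with shares by Clopper-Pearson. The ratio intervals and the 2-fold limit were tested on simulated Poisson totals, which do not model concentration in few cells. The other steps were not tested in this way. No doublet caller was used. Doublets were addressed only by leaving out the 5% deepest cells.

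The members, lists and markers were chosen with earlier results of these data known. Named genes are the members, their family, the genes of the lists, the 10 genes most like the summed members and the leading genes of clusters with at least 10% of member UMIs. Taf4, Vim, Chga, Chgb, Neurog3 and Lgr5, the low-quality genes and the leading genes of other clusters fall outside this rule and were chosen with their values in view. RefSeq sequences are of GRCm38.p6, matched by symbol. Transcripts were taken from GENCODE M1, in which Defa30 is Gm15284.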

Additional observations from a re-analysis of the deposited data

Results flagged for a closer look

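Defa24 had opposite directions at the depths compared. Its log2 ratio was -0.18 (-0.29 to -0.06) in cells under 2000 UMIs and 1.11 (1.09 to 1.13) in deeper cells, a difference that was not tested. The lower value rests in part on 1 control cell, with 30.1% of the 647 Defa24 UMIs in cells from 1000 to under 2000 UMIs. Without the highest cell of each library, Defa24 stood there at 13.8 in the control and 14.5 in Taf4 IEC, against 19.7 and 17.1 with it. Under 1000 UMIs it stood at 22.7 and 19.3 without that cell, still lower in Taf4 IEC. The same gene was higher in Taf4 IEC in Paneth/goblet-like (1.10) and enteroendocrine-like cells (2.57) and lower in stem-like (-1.09, -1.22 to -0.97) and enterocyte-like cells (-0.22, -0.42 to -0.03). A single control stem-like cell held 1279 of 3393 Defa24 UMIs, and a single Taf4 IEC enteroendocrine-like cell 1840 of 4020. Without the highest cell of each library for the gene in the class, the ratio of Defa24 was 1.17, 1.92, -0.57 (-0.71 to -0.44) and -0.34 (-0.54 to -0.13) in the same order of classes. Defa21 was higher in Paneth/goblet-like (2.28) and enteroendocrine-like cells (6.20) and lower in stem-like cells (-2.53, -5.64 to -0.54), where it had 28 control and 2 Taf4 IEC UMIs. Defa22 was higher in Paneth/goblet-like (2.75) and enteroendocrine-like cells (7.84) and lower in stem-like (-2.42, -5.54 to -0.43) and enterocyte-like cells (-2.63, -5.97 to -0.14), where it had 26 and 2 and 6 and 2 UMIs. In the control, 2.57% of stem-like and 2.65% of all cells had a Defa21 UMI. For Defa22 these shares were 2.38% and 2.65%. No control stem-like cell had more than 2 UMIs of either gene. The enteroendocrine-like values of Defa21 and Defa22 rest on 1 cell with 999 and 890 UMIs, and without the highest cells they were -1.82 (-4.31 to 0.10) and -1.54 (-7.25 to 2.10), from 11 and 3 and from 3 and 1 UMIs. In Paneth/goblet-like cells they were 4.62 and 4.27 without the highest cells. None of these differences between classes was tested, since each condition had 1 library.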

How the results depend on the processing

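No paired analysis was possible because each condition had 1 library. The summed log2 ratio over all cells (1.73) stayed positive under the 11 alternatives. It was 1.54 with mitochondrial, ribosomal protein, Gm42418 and AY036118 genes left out of the total, 1.57 with a median-of-ratios size factor, 1.75 in cells with at least 2000 UMIs, 0.75 in cells under 2000 UMIs, 1.75 in cells with at least 1000 genes, 1.42 and 1.67 after thinning to 500 and 2000 UMIs, 1.4 as a mean per cell, 2.43 without the 1% highest cells, 1.94 without the 5% deepest, and 1.84 without the 3 highest cells, a setting chosen after seeing the data. All 10 members past 2-fold became 5 in cells under 2000 UMIs, where Defa24 (-0.18) and Defa26 (-0.65, from 4 and 4 UMIs) were reversed and Mmp7 stood at 0.06. The count was between 7 and 10 elsewhere, with 9 under either other total and 7 after thinning to 500 UMIs. In Paneth/goblet-like cells the ratio (1.69) was 1.71 and 1.12 at resolutions of 0.5 and 1.4, 1.43 and 1.74 with 10 and 30 principal components, 1.11 with the family kept in the variable genes, 0.77 by own markers, 1.70 in class cells with at least 2000 UMIs, 1.39 as a mean per cell and, added after seeing the data, 1.71 without the shallow Taf4 IEC cluster. There the number of members past 2-fold was between 5 and 10. The causes of these shifts were not tested. Genes past 2-fold were 9.0% at 200 UMIs and 12.7% at 50. Values of Defa5, Defa21 and Defa22 are limited by the 1 to 3 cells that held most of their UMIs.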

Other observations

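Genes of the same lists that are not members were also held by few cells, and differently in the libraries. For Reg3g, an antibacterial lectin, 50% of the UMIs lay in 84 control cells but in 3 Taf4 IEC cells, at levels of 0.121 and 0.123 per 10000 (log2 ratio 0.02, -0.19 to 0.23). Zg16, a lectin of goblet cell granules, stood at 0.154 and 3.79, with 50% of its UMIs in 2 cells of each library. Clca1, a secreted component of goblet cell mucus, had 14 and 474 UMIs, with 50% in 3 and 2 cells. Nupr1, by contrast, was spread over 228 control and 71 Taf4 IEC cells at that share.

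Of the scarce defensin genes outside the 10, a few were held mostly by 1 cell in a library. Defa29 had 9 UMIs in 9 control cells, and 91 of its 119 Taf4 IEC UMIs lay in 1 cell. The predicted gene Gm14851 had 15 control UMIs in 14 cells, and 103 of its 158 Taf4 IEC UMIs lay in 1 cell. All 35 control UMIs of the predicted gene Gm15293 lay in 1 cell, as did 87 of 129 in Taf4 IEC. Each of these genes was below 200 UMIs over both libraries, and their counts are uncertain as for the other copies.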
